A study of Mus musculus with 3 samples.

Results

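Among 72222 CELF1 CLIP clusters from 3 mouse libraries, 351 lay past the annotated 3′ end of their own gene. A cluster was counted when its midpoint fell outside the span of the gene it was assigned to, on that gene's strand, and at most 10 kb downstream of its end (mm9 genome, GENCODE vM1 annotation). The 351 clusters belonged to 81 genes, with 182 of 42263 clusters in heart, 150 of 24844 in muscle and 19 of 5115 in C2C12 myoblasts. CLIP recovers RNA fragments that ultraviolet light (254 nm) has crosslinked to a protein, here with the 3B1 antibody against endogenous CELF1. The tissues, heart ventricle and muscle, were taken from C57/BL6 mice 16 weeks of age, and C2C12 is a mouse myoblast line that grows as muscle precursors. Each source gave 1 library without a genotype change or treatment, so no replicate error could be estimated. The files give no read numbers for a cluster or a library. The study reports fewer uniquely mapped reads for muscle than for heart or myoblasts, after identical reads were collapsed. These totals were not used in any share or test here. Every test below compares these libraries and covers counting error only. Clusters of 1 gene share a transcript and were not independent.

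The 3′ UTR of an mRNA ends at a polyadenylation site, and many genes use several such sites, so that an annotation built from the shorter form stops before the longer one does. CELF1 binds GU-rich RNA with the trinucleotide UGU at its core, and through 3′ UTR sites it recruits deadenylases and promotes mRNA decay. The protein also binds introns, where it acts on splicing. The authors delimited genes from the combined RefSeq, Ensembl and UCSC tables, so a cluster outside the GENCODE vM1 span is taken to lie where the bounds used for clustering ran further than that span. Those bounds were not used here, so how far they ran past each gene, and their part in each downstream share and distance, was not tested.

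Stretches from some of the clusters are printed to show the RNA that was crosslinked beyond the annotated ends. They were chosen and do not represent all clusters. The first 4 genes are those with a position common to all 3 libraries, followed by genes with clusters far from the end or many clusters. Of the Zfp871 stretches common to all libraries, the one printed held 10 UGU and the others 2 each. Each line holds the 30 nt with the most UGU in the cluster or common stretch, 5′ to 3′ on the transcript strand, read from mm9, with capitals marking UGU. Because the window was picked for UGU, its density says nothing of the cluster as a whole.
Zfp871 (chr17:32906090-32906119, minus strand, 2077 nt past the end): uaagcuugcUGUGUGUGUGUGUGUGUGUGU
Lnpk (chr2:74358155-74358184, minus strand, 179 nt past the end): uUGUuUGUaaauuuuacaaggggUGUGUGU
Atm (chr9:53246315-53246344, minus strand, 925 nt past the end): gUGUGUGUGUGUGUGUGUgauuUGUauUGU
H1f0 (chr15:78860473-78860502, plus strand, 798 nt past the end): uugauggauugcguccuagcaggacuuUGU
Slc8a1, nearest shared cluster (chr17:81785264-81785293, minus strand, 81 nt past the end): gUGUGUuugccuuuucagucuucaugcUGU
Slc8a1, farthest cluster (chr17:81775801-81775830, minus strand, 9544 nt past the end): agcaguucaagaaucUGUGUgcuucUGUug
Aak1, farthest cluster (chr6:86951687-86951716, plus strand, 9843 nt past the end): uugcuacugcUGUaaaaUGUcUGUuuagga
Igf1r, farthest cluster (chr7:75378419-75378448, plus strand, 6949 nt past the end): uucuuuacauuaugaaaaaagaaacuuUGU
Ston2, farthest cluster (chr12:92871525-92871554, minus strand, 5443 nt past the end): ucugcagaggugaUGUuuUGUuuuagaUGU
Atad2b, nearest shared cluster (chr12:5051837-5051866, plus strand, 998 nt past the end): aUGUGUaaucaguUGUcauUGUuuUGUUGU
The Atm and Zfp871 stretches each held 10 overlapping UGU, whereas those of H1f0 and Igf1r held 1.

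Of the 72222 clusters, 71471 belonged to genes that could be matched to the annotation, in 7981 of 8037 genes. The tissue labels were checked against the genes bound. Of 24 genes chosen as enriched in heart, 20 had a cluster in the heart library, 8 in that of muscle and 4 in that of myoblasts. Of 24 skeletal-muscle genes, heart had a cluster in 12, muscle in 24 and myoblasts in 4. Of the 7981 matched genes, 6808 had a cluster in heart, 5293 in muscle and 2719 in myoblasts. The heart list followed this same order, and the skeletal-muscle list did not.

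Downstream clusters far outnumbered clusters on the other side of the gene. The same 10 kb window before the annotated 5′ start held 23 heart, 5 muscle and 5 myoblast clusters. Both counts depend on how far the authors' gene bounds ran past the annotation on each side, so the upstream window is a comparison by position and no background for binding. Clusters past the 3′ end thus made up 88.8% of those within 10 kb on either side in heart (exact 95% binomial interval 83.6 to 92.8%). They made up 96.8% in muscle (92.6 to 98.9%) and 79.2% in myoblasts (57.8 to 92.9%). The upstream clusters lay in 13, 5 and 2 genes of the heart, muscle and myoblast libraries, and Zfp445 and Zfp870 were the only genes with clusters on both sides.

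**Figure D1:**
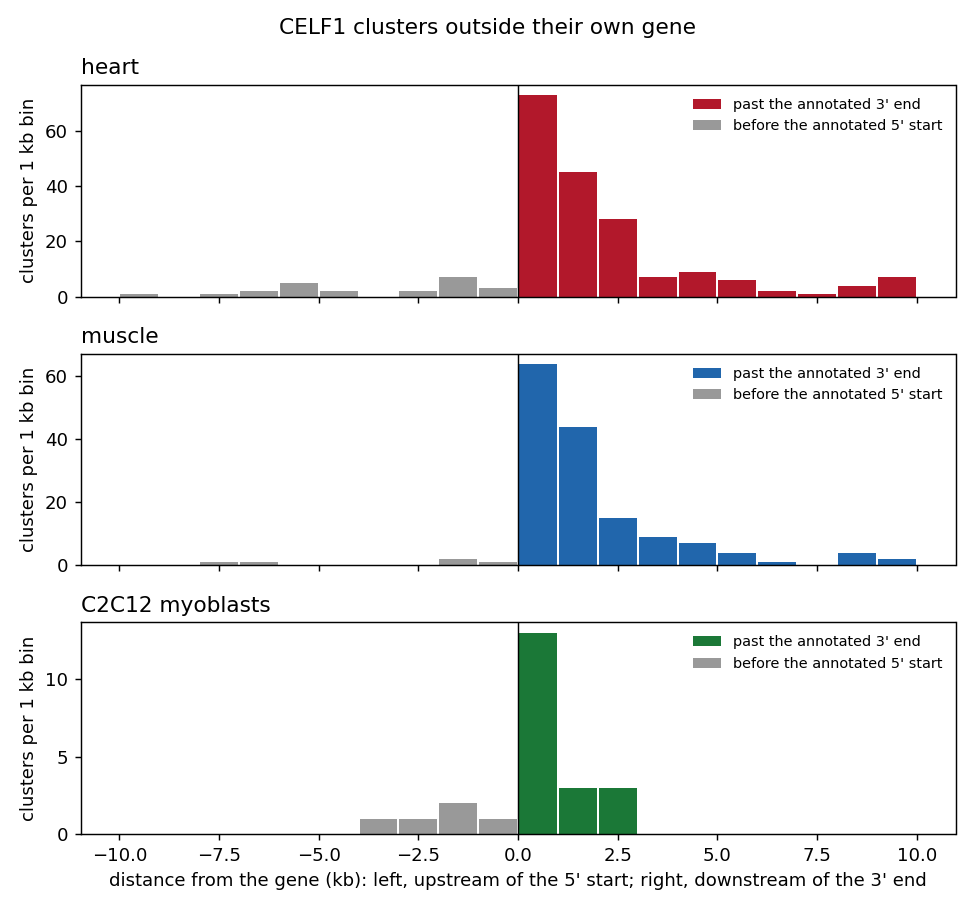
Number of clusters per 1 kb bin (vertical axis) by distance in kb from the gene (horizontal axis) in heart, muscle and C2C12 myoblasts, with colored bars past the annotated 3′ end and gray bars before the 5′ start. The first kilobase past the end was the fullest bin in each library, with 73, 64 and 13 clusters, and the gray bars sum to 23, 5 and 5.

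The downstream clusters crowded near the end of the gene. The median midpoint lay 1366.5 nt past the end in heart, 1200.5 nt in muscle and 449 nt in myoblasts. Within the first kilobase lay 73 of 182 heart clusters (40.1%), 64 of 150 muscle clusters (42.7%) and 13 of 19 myoblast clusters (68.4%). None of these shares differed after adjustment over the 3 pairs (Fisher's exact test, 2-sided, Benjamini-Hochberg adjusted p = 0.655 for heart against muscle and 0.0734 for each of them against myoblasts). With the limit at 500 nt, heart (26.4%) and muscle (26.0%) both fell below myoblasts (52.6%; adjusted p = 0.0448 for each, Fisher's exact test). In 61 of the 81 genes the nearest cluster was within 1 kb, while 25 genes had a cluster past 2 kb and 6 genes one past 5 kb.

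As a share of the clusters of matched genes, downstream clusters were 0.436% in heart (exact 95% interval 0.375 to 0.504%), 0.608% in muscle (0.515 to 0.713%) and 0.374% in myoblasts (0.225 to 0.584%). Heart minus muscle was -0.172 percentage points (adjusted p = 0.00904, Fisher's exact test over 3 pairs). By the same exact test, heart minus myoblasts was 0.062 points (adjusted p = 0.649) and muscle minus myoblasts 0.234 points (adjusted p = 0.0758). The difference between heart and muscle did not pass when each gene was counted once. By gene, 61 of 6808 genes with a heart cluster had one downstream (0.896%), 51 of 5293 in muscle (0.964%) and 14 of 2719 in myoblasts (0.515%), with an adjusted p of 0.703 for heart against muscle (Fisher's exact test). It also missed the threshold when genes were matched by current symbol alone (adjusted p = 0.0535, Fisher's exact test), a match that drops Lnpk. Without Zfp871 and Lnpk, the genes with the most downstream clusters, muscle minus myoblasts was 0.231 points and passed (adjusted p = 0.041, Fisher's exact test).

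Over all libraries 81 of 7981 genes with a cluster had one downstream (1.01%). Of these, 7 genes had downstream clusters in all 3 libraries, 29 in heart and muscle but not myoblasts, 2 in heart and myoblasts but not muscle, 23 in heart only, 15 in muscle only and 5 in myoblasts only. The heart library had 6808 genes with a cluster at any place, against 5293 for muscle and 2719 for myoblasts. The same split of all 7981 genes was not made, so the part of these unequal numbers in the split was not tested. A single downstream cluster was all that 27 genes had, whereas 38 genes had 3 or more and held 292 of the 351. In 20 genes every cluster in the files lay downstream.

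Zfp871 encodes a protein of the zinc finger family, whose members bind DNA through repeated zinc-coordinating modules. It had the most downstream clusters, 16 from heart, 14 from muscle and 5 from myoblasts. The gene ends at base 32908181 on chromosome 17, and the clusters ran from 58 to 5268 nt past that end at 21 distinct positions, with no gap above 589 nt. Inside the annotated 3′ UTR of 3119 nt it had 5 heart, 5 muscle and 1 myoblast clusters. At 3 of the positions clusters of all 3 libraries overlapped, one of them the GU repeat printed above.

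Lnpk, listed in the annotation as Lnp, encodes lunapark, an endoplasmic reticulum protein that stabilizes the junctions of its tubules. Its 13 heart, 16 muscle and 1 myoblast clusters covered 12 to 4826 nt past the end at 18 positions. The annotated 3′ UTR of 2001 nt held 2, 5 and 1 clusters in the heart, muscle and myoblast libraries. Like Zfp871, Lnpk had more clusters beyond its annotated 3′ UTR than inside it in heart and muscle. Both genes together held 65 of the 351 clusters (18.5%), and calls that changed without them, an alternative added after seeing the data, are given with the comparison.

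Slc8a1 encodes the sodium-calcium exchanger of the heart cell membrane, which removes calcium from the cytoplasm after each beat. It had 16 downstream heart clusters, 3 from muscle and 0 from myoblasts. The heart clusters lay between 49 and 9559 nt past the end, and the muscle clusters at 59, 192 and 8947 nt. All 3 muscle clusters overlapped a heart cluster, and heart had 13 further positions over the same stretch. The annotated 3′ UTR was 9 nt long, counted from the stop codon, and 6 more heart clusters lay beyond the 10 kb limit, at 11981 to 12861 nt. Heart also had the most clusters inside the gene, with 71 intronic clusters against 8 in muscle and 3 in myoblasts. In all genes together, heart had 24330 intronic clusters, muscle 10507 and myoblasts 3021. The part of library size in the Slc8a1 counts was not tested.

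Aak1, a kinase that phosphorylates the clathrin adaptor AP2 in endocytosis, differed from these genes in where its clusters began. Its 9 heart clusters lay from 5329 to 9854 nt and its 5 muscle clusters from 8219 to 9708 nt past the end, with none nearer, and 4 of the 5 overlapped a heart cluster. No library had a cluster in the annotated 3′ UTR of 4727 nt. Aak1 also supplied the clusters on either side of the limit, with one in heart at 9854 nt inside it and those in myoblasts at 10231 nt and heart at 10232 nt outside it.

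Ston2 encodes stonin 2, an endocytic adaptor that sorts synaptic vesicle proteins. It had 3 downstream clusters in heart, at 1172, 4778 and 5342 nt, against 11 in muscle between 318 and 5469 nt. Each heart cluster overlapped a muscle cluster, and these 3 were the only ones Ston2 had in heart. Muscle had a further 3 clusters in the annotated 3′ UTR of 1271 nt.

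Atm encodes the kinase that signals DNA double-strand breaks. Its 4 heart, 3 muscle and 2 myoblast clusters were the only clusters of the gene, and the heart ones lay at 868, 933, 1001 and 1189 nt. Muscle clusters were at 927, 1188 and 1931 nt and myoblast clusters at 930 and 1922 nt, so the position near 930 nt was common to all 3 libraries. H1f0, a linker histone of cells that have stopped dividing, likewise had 3, 3 and 1 clusters in heart, muscle and myoblasts and none elsewhere. The clusters of H1f0 lay at 320 to 1195 nt past a feature that GENCODE vM1 lists as a pseudogene.

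Other genes among the 15 with the most downstream clusters had them within 4 kb of the end. Hnrnpd encodes AUF1, which binds AU-rich elements and governs mRNA decay. It had clusters at 478, 687, 858 and 1815 nt in heart, against 376, 470, 662, 854 and 1813 nt in muscle, and each heart cluster overlapped a muscle cluster. Pnpla8, a calcium-independent phospholipase, had heart clusters at 210, 516, 571, 670 and 771 nt and muscle clusters at 221, 502, 565 and 666 nt, and each of the 4 muscle clusters overlapped one of heart. Ppara encodes the nuclear receptor that drives fatty acid oxidation. Its heart clusters lay at 176, 1424, 2405, 2481 and 3016 nt, against 192, 3025 and 3921 nt in muscle, with the positions near 176 and 3016 nt in common. Senp5, a SUMO protease, had clusters at 129, 1254, 1608 and 1737 nt in heart and at 118, 1258 and 1395 nt in muscle, and 5 of the 7 lay opposite Ncbp2, a gene on the other strand.

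Several genes of this group had an annotated 3′ UTR of under 10 nt. Wee1, the kinase that restrains entry into mitosis, had 6 heart clusters at 78 to 1160 nt, 1 muscle cluster at 141 nt and 1 myoblast cluster at 449 nt. Atad2b, a bromodomain ATPase, had heart clusters at 135, 1007 and 2705 nt and muscle clusters at 426, 521, 1008 and 1094 nt, of which the position near 1007 nt was shared. Phf20l1, a reader of methylated lysine, had heart clusters at 2059, 2569 and 2941 nt, and muscle clusters at 1150, 1782, 1895 and 1999 nt, of which the one at 1999 nt overlapped the heart cluster at 2059 nt.

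**Figure D2:**
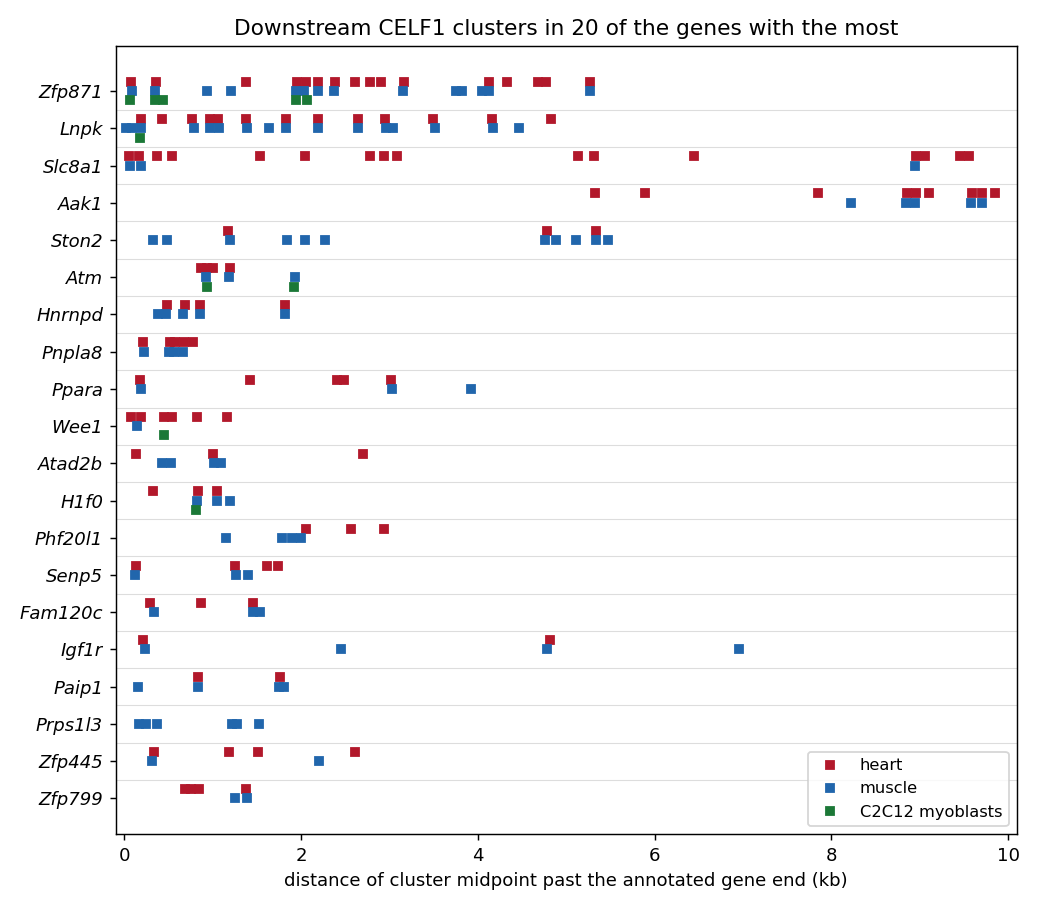
Distance of each downstream cluster's midpoint past the annotated gene end (horizontal axis, kb) for 20 of the genes with the most (rows), with heart in red, muscle in blue and C2C12 myoblasts in green. Zfp871 and Lnpk were covered from the end to about 5 kb, whereas the nearest cluster of Aak1 was at 5329 nt, and many heart and muscle clusters stood at the same place.

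The clusters farthest from their gene's end, outside any other annotated gene, were those of Aak1, Slc8a1, Fzd3, Igf1r and Ston2. Fzd3, a Wnt receptor, had 2 clusters, both in heart, at 6024 and 8359 nt. Igf1r encodes the receptor of insulin-like growth factor 1. It had heart clusters at 209 and 4820 nt, against muscle clusters at 229, 2454, 4785 and 6954 nt, past an annotated 3′ UTR of 200 nt. Prps1l3 was among the 5 genes with the most clusters in muscle, where all 6 lay downstream at 159 to 1523 nt. All 6 lay inside Mipol1, a gene of the same strand.

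The 7 genes with downstream clusters in all 3 libraries were Zfp871, Lnpk, Atm, Wee1, H1f0, Cct6a and Dhx36. Cct6a, a subunit of the chaperonin that folds actin and tubulin, had 1 cluster per library, at 276 nt in heart, 282 nt in muscle and 421 nt in myoblasts. Dhx36, a helicase that unwinds G-quadruplexes, had a heart cluster at 544 nt, muscle clusters at 554, 748 and 804 nt, and a myoblast cluster at 4 nt. In both genes the nearest heart and muscle clusters lay close together, and the myoblast cluster stood apart from them.

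Among the genes with 6 downstream clusters, chosen after their values were seen, the X-linked Fam120c had heart clusters at 293, 869 and 1460 nt and muscle clusters at 336, 1455 and 1537 nt. Paip1, which binds the poly(A)-binding protein and promotes translation, had clusters at 833 and 1762 nt in heart, against 156, 833, 1754 and 1801 nt in muscle. Both of these genes had a polyadenylation signal at the annotated end. Zfp445, a zinc finger gene whose annotated 3′ UTR was the stop codon alone, had heart clusters at 332, 1181, 1513 and 2609 nt and muscle clusters at 313 and 2199 nt, beside 3 clusters before its 5′ start. Zfp799, with the same kind of end, had heart clusters at 685, 758, 842 and 1378 nt and muscle clusters at 1250 and 1383 nt, all opposite Gm16684 on the other strand. A further 52 genes had 1 to 5 downstream clusters each, 102 in all, of which 59 were in heart, 38 in muscle and 5 in myoblasts. These lay 1 to 4129 nt past the end, and in 26 of the 52 genes all were within 1 kb.

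Few of the 351 clusters lay inside an annotated neighbor. Each cluster came with the authors' gene assignment, so one inside a neighbor may have been assigned to that neighbor and not counted here. Only 9 (2.56%) had their midpoint inside another gene of the same strand, in 3 genes (Prps1l3 in Mipol1, Chmp7 in Gm16867 and Chml in Opn3), and none lay in an exon of such a gene. The share was 3 of 182 in heart (1.65%), 6 of 150 in muscle (4%) and 0 of 19 in myoblasts, where the exact interval reached 17.6%. No pair of libraries passed the test (adjusted p = 0.927 for heart against muscle and 1 for both others, Fisher's exact test). A gene on the opposite strand covered 33 clusters (9.40%).

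The genes with downstream clusters had unusual annotated ends. Of the 80 that were protein-coding, 19 (23.8%; exact interval 14.9 to 34.6%) had an annotated 3′ UTR of 10 nt or less, against 38 of 7890 other genes with a cluster (0.482%; 0.341 to 0.66%). In 16 genes (20%) it was the stop codon alone, among them Wee1, Atad2b, Zfp445, Zfp799, Hnrnpa1 and Eln, the gene of elastin. The median annotated 3′ UTR, pooled over the coding transcripts of each gene, was 682.5 nt in genes with a downstream cluster and 1482.5 nt in the others. The rule itself favors genes whose annotation stops early, because any cluster past that end is counted, so these shares are no independent result. These features were picked after the values were seen and are given without a test.

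**Figure D3:**
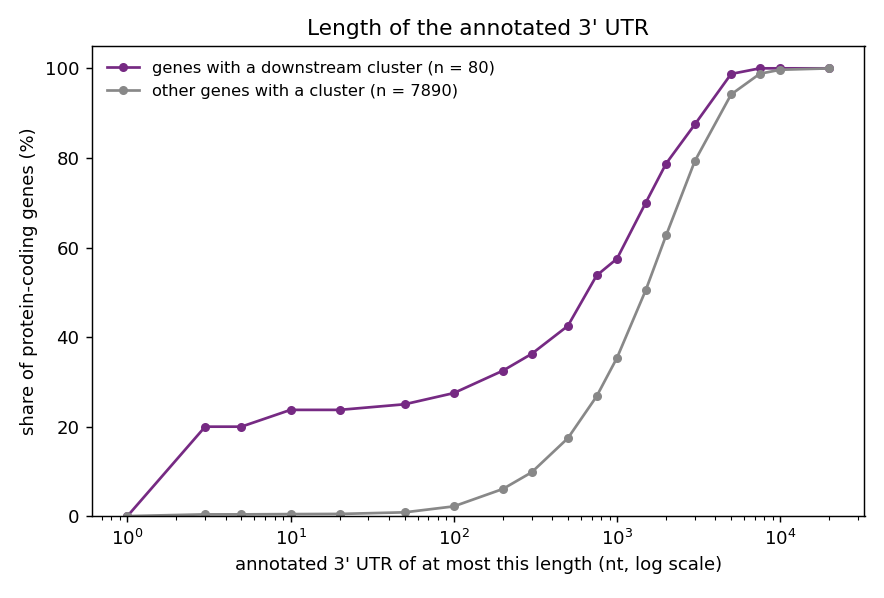
Share of protein-coding genes (vertical axis, %) whose annotated 3′ UTR was at most the length on the horizontal axis (nt, log scale, stop codon included), for 80 genes with a downstream cluster (purple) and 7890 other genes with a cluster (gray). At 10 nt the purple line stood at 23.8% and the gray line at 0.482%, and at 500 nt they stood at 42.5% and 17.4%.

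Most mRNAs carry the signal AATAAA or ATTAAA shortly before their polyadenylation site. One of these was found on the transcript strand in the last 50 nt of the annotated gene in 24 of 80 genes with a downstream cluster (30%; 20.3 to 41.3%) and in 6232 of 7890 others (79%; 78.1 to 79.9%). None of the 19 genes with a 3′ UTR of 10 nt or less had one, against 24 of the other 61 (39.3%). Past the farthest downstream cluster, AATAAA on the transcript strand followed within 500 nt in 49 of 81 genes (60.5%), against 23 of 81 in windows of the same length 15 kb past the gene end (28.4%). Within 1000 nt the numbers were 59 (72.8%) and 37 (45.7%). The shares at the annotated end fall under the same selection by the rule. A match shows these letters only and not a used site.

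Genes with a downstream cluster had a cluster in the annotated 3′ UTR less often than other bound genes in heart and muscle. This was partly set in advance, because an annotated 3′ UTR of 10 nt or less has little room for a cluster midpoint. None of the 19 genes with such a short 3′ UTR had a 3′ UTR cluster, and 17 of them had a downstream cluster in heart. In heart 25 of 61 genes with a downstream cluster also had one in the annotated 3′ UTR (41.0%), against 4128 of 6747 without (61.2%; adjusted p = 0.00321, Fisher's exact test over 3 libraries). By the same exact test, in muscle the shares were 39.2% (20 of 51) and 68.6% (adjusted p = 7.25e-05), and in myoblasts 28.6% (4 of 14) and 42.0% (adjusted p = 0.419). Among genes with more than 10 nt of annotated 3′ UTR, a restriction chosen after seeing the data, the shares were 58.1% and 61.5% in heart (adjusted p = 0.962) and 52.6% and 68.9% in muscle (adjusted p = 0.106, Fisher's exact test for both), so that neither passed.

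Nearly all downstream clusters of heart and muscle held the CELF1 core motif, as clusters elsewhere did. At least 1 UGU was present in 180 of 182 heart clusters (98.9%; exact interval 96.1 to 99.9%), against 97.5% of heart 3′ UTR clusters and 99.2% of heart intronic clusters. In muscle it was present in 148 of 150 (98.7%; 95.3 to 99.8%), against 97.8% and 99.3%, and in myoblasts in 16 of 19 (84.2%; 60.4 to 96.6%), against 88.9% and 86.2%. None of the 6 comparisons passed the test (adjusted p = 0.775 for each, Fisher's exact test), and the motif was searched on the transcript strand with overlaps counted. Windows of the same width 200 nt before and after the downstream clusters held it in 73.1 and 75.3% of cases in heart, 74.0 and 78.7% in muscle, and 63.2 and 73.7% in myoblasts. The 7 clusters without UGU belonged to Fbxl7 and Senp5 in heart, Myoz3 and Pnpla8 in muscle, and, among others, Dhx36 and Jak1 in myoblasts.

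By density the downstream clusters stood closer to the 3′ UTR than to introns in heart and muscle. They held 6.73 UGU per 100 nt in heart, against 5.59 in 3′ UTR and 11.5 in intronic clusters, and 6.53 in muscle, against 5.64 and 11.5. In myoblasts the density was 9.42, against 6.54 and 9.52. Requiring at least 2 UGU separated them from introns, with 88.5% of downstream against 94.2% of intronic clusters in heart (adjusted p = 0.0105, Fisher's exact test) and 85.3% against 95.4% in muscle (adjusted p = 1.4e-05). Against 3′ UTR clusters no such difference was found in muscle, where both shares were 85.3%. In heart the shares were 88.5% downstream and 84.5% in the 3′ UTR (adjusted p = 0.299, Fisher's exact test).

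**Figure D4:**
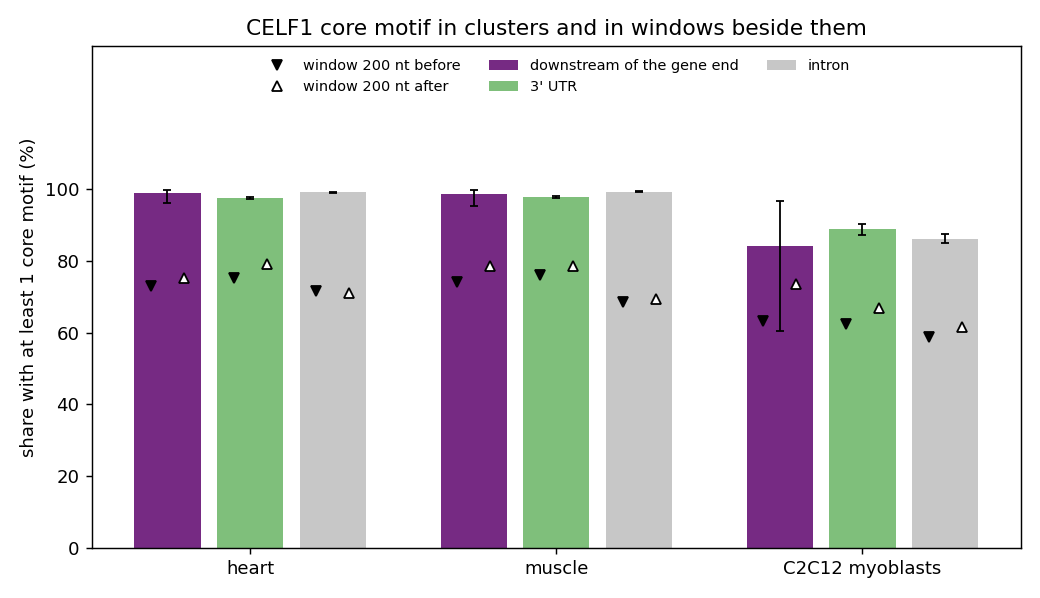
Share of clusters with at least 1 UGU (vertical axis, %) downstream of the gene end (purple), in annotated 3′ UTRs (green) and in introns (gray) for each library, with exact 95% binomial intervals and triangles for windows 200 nt before (filled) and after (open) the cluster. The bars of a library overlap in their intervals with those of the downstream clusters (98.9% in heart, 98.7% in muscle, 84.2% in myoblasts), and the triangles lie below the bars.

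Downstream clusters of heart recurred in muscle less often than 3′ UTR clusters and more often than intronic clusters. In heart, 69 of 182 downstream clusters overlapped a muscle cluster by at least 1 bp on the same strand (37.9%), against 53.8% of heart 3′ UTR clusters (adjusted p = 0.000146, Fisher's exact test over 12 comparisons) and 18.9% of heart intronic clusters (adjusted p = 3.67e-08). By the same exact test, 70 of 150 muscle clusters overlapped one of heart (46.7%), against 60.9% in the 3′ UTR (adjusted p = 0.00194) and 43.6% in introns (adjusted p = 0.495). With 1 cluster per gene the differences from the 3′ UTR were -4.12 points for heart (adjusted p = 0.721) and -14.0 points for muscle (adjusted p = 0.201, Fisher's exact test), and neither passed. The overlap of heart clusters with muscle was 41.1% in the first kilobase (30 of 73), 36.0% from 1 to 5 kb (32 of 89) and 35% beyond (7 of 20). That of muscle clusters with heart was 46.9% (30 of 64), 44.0% (33 of 75) and 63.6% (7 of 11) over the same distances, and in both directions the exact intervals overlapped.

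The myoblast library was involved in few overlaps. Of its 19 downstream clusters, 8 overlapped a muscle cluster (42.1%), against 51.0% of its 3′ UTR clusters (adjusted p = 0.495, Fisher's exact test) and 11.2% of its intronic clusters (adjusted p = 0.00194). By the exact test, 8 also overlapped a heart cluster, against 59.3% of 3′ UTR clusters (adjusted p = 0.213) and 20.1% of intronic clusters (adjusted p = 0.0907). Of the 19, 6 were in Zfp871 or Lnpk, and without these genes the difference from introns in the overlap with muscle was 11.9 points (adjusted p = 0.26, Fisher's exact test). For the overlap with heart, the share without them was 23.1% downstream and 59.3% in the 3′ UTR (adjusted p = 0.0249, Fisher's exact test). A myoblast cluster was overlapped by 8 of 182 heart (4.4%) and 8 of 150 muscle downstream clusters (5.33%), and no difference from the 3′ UTR or introns passed (adjusted p from 0.213 to 0.495, Fisher's exact test). Without Zfp871 and Lnpk the heart share was 1.96%, against 7.6% in the 3′ UTR (adjusted p = 0.0148, Fisher's exact test).

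**Figure D5:**
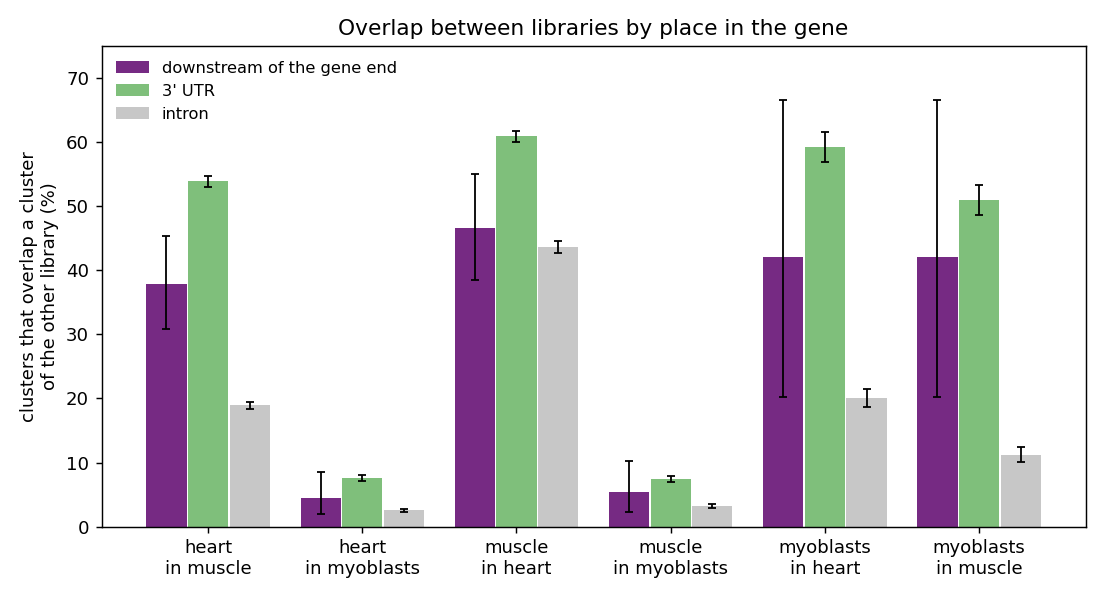
Share of the clusters of one library that overlapped a cluster of another (vertical axis, %) in the 6 directions (horizontal axis), for clusters downstream of the gene end (purple), in 3′ UTRs (green) and in introns (gray), with exact 95% binomial intervals. In heart against muscle the downstream share of 37.9% lay between the 53.8% of the 3′ UTR and the 18.9% of introns.

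Joined across libraries, the 351 clusters made 271 distinct positions. Only downstream clusters were joined, so a position of 1 library may still overlap a cluster of another whose midpoint lay inside the gene. The muscle position of Syap1 overlapped such a heart cluster. On this count 112 positions were of heart alone, 80 of muscle alone and 10 of myoblasts alone. Heart and muscle shared 61, heart and myoblasts 1, and muscle and myoblasts 1. The 6 positions common to all libraries were 3 in Zfp871 and 1 each in Lnpk, Atm and H1f0. The libraries were of unequal size, since heart gave 42263 clusters of any kind, against 24844 for muscle and 5115 for myoblasts. Positions were not joined for clusters of other kinds, and the part of library size in these counts was not tested.

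The genes were also counted in 22 short lists, which hold only some genes of each group, beside 1.01% of all genes with a cluster. RNA-binding proteins had 3 of 35 (8.57%), namely Hnrnpd, Hnrnpa1 with a myoblast cluster at 563 nt, and Mbnl3, a muscleblind family member, with a myoblast cluster at 2983 nt. The list of kinases and phosphatases, which does not hold Aak1, Atm or Wee1, had 2 of 32 (6.25%), Igf1r and Prkaa2, a catalytic subunit of the energy sensor AMPK, whose 1 cluster in muscle lay at 193 nt. Ion channels and calcium handling had 1 of 30 and heart-enriched genes 1 of 20, both through Slc8a1. The other 18 lists had none, among them 0 of 26 genes of the sarcomere, 0 of 24 skeletal-muscle-enriched genes, 0 of 11 myogenic regulators, 0 of 13 cleavage and polyadenylation factors, 0 of 21 genes of microRNA silencing and mRNA decay and 0 of 36 chromatin and transcription regulators. Also without a downstream cluster were 27 cytoskeletal, 29 vesicle transport, 19 oxidative phosphorylation and 8 ribosomal protein genes, and 10 immediate early genes or mRNAs known for GU-rich elements. The same held for the bound markers of other cell types, 10 endothelial, 6 fibroblast, 6 smooth muscle, 3 macrophage, 1 erythroid, 2 adipocyte and 2 Schwann cell genes.

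A muscle gene outside the lists' hits was also present, chosen here after its values were seen. Myoz3, a Z-disc protein of skeletal muscle that binds calcineurin, had 4 clusters in muscle and 0 in heart and myoblasts, the farthest at 1032 nt. Zinc finger genes named Zfp, another group picked after the values were seen, made up 9 of the 81 genes and held 55 clusters, with 9 of 149 bound Zfp genes (6.04%; exact interval 2.80 to 11.2%) against 72 of 7832 others (0.919%). Of the 55 clusters, 35 were of Zfp871 alone. In Zfp445, Zfp799, Zfp870, Zfp317, Zfp709 and Zfp930 the annotated 3′ UTR was the stop codon alone, unlike in Zfp871, Zfp26 and Zfp84. The part of these short annotations in the Zfp share was not tested.

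Neither Cnih4 nor Myadm, genes whose 3′ UTRs the study took as examples, had a cluster past its annotated end. Cnih4, a member of the cornichon family of cargo receptors, had 5 heart, 6 muscle and 0 myoblast clusters in its annotated 3′ UTR. Myadm, a membrane protein of myeloid differentiation, had 7, 6 and 5 in heart, muscle and myoblasts.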

How the data were processed

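The deposited files list CLIP clusters as BED intervals of 35 to 126 nt on mm9, with the Entrez ID of the gene and the strand. They hold positions and no counts, and their score column is the constant 1e-06, which was not used. Per the labels the authors mapped reads with Bowtie and TopHat (versions not given in the sources used here). The methods state that identical reads were collapsed and that clusters were sought within genes delimited by RefSeq, Ensembl and UCSC tables.

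Gene symbols for Entrez IDs came from a RefSeq table of GRCm38.p6, used for names only, and were matched to GENCODE vM1 by symbol or synonym (7981 of 8037 IDs; 42 of the 351 clusters by synonym). Each cluster was placed by its midpoint as downstream, upstream, 3′ UTR, intron or other. Each length given for an annotated 3′ UTR counts the distinct 3′ UTR bases of all coding transcripts of the gene. These bases need not all adjoin the gene end. Sequences were read from the mm9 genome (NCBIM37) with pysam 0.24.0. Shares were compared with the 2-sided Fisher's exact test (scipy 1.17.1) and Benjamini-Hochberg adjustment within each family of 3, 6 or 12 comparisons, at a threshold of 0.05, and carry exact 95% Clopper-Pearson intervals. The placing and counting were tested on simulated data. Alternatives were the downstream window, the distance limit, the gene match, the number of UGU, the overlap required, 1 cluster per gene and, added after seeing the data, leaving out Zfp871 and Lnpk or genes with a 3′ UTR of 10 nt or less. The genes named were the 15 with the most downstream clusters, the 5 with the most in each library, those with a position in all libraries, the 5 farthest, up to 4 per list, Cnih4 and Myadm, and exceptions are marked. Some genes are not reported here. The members and the 22 gene lists were chosen with earlier results of these data known.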

Additional observations from a re-analysis of the deposited data

How the results depend on the processing

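Of 129 recomputed values for 33 results, 102 neither changed sign nor crossed the threshold (in 3 of them, for clusters in an exon of another gene, both shares were 0, and the 6 for downstream beside upstream clusters have no test), 9 lost the threshold, 8 passed it and 10 changed sign; the cause was not tested. No paired analysis was possible because each source gave 1 library. Differences are in percentage points and are from Fisher's exact test. Downstream share: heart minus muscle was -0.137 by current symbol and -0.0675 by gene (both lost), heart minus myoblasts -0.0323 with a 2 kb window (sign changed), and muscle minus myoblasts 0.231 without Zfp871 and Lnpk and 0.224 for genes with over 10 nt of 3′ UTR (both passed). With the near limit at 500 nt, heart minus muscle was 0.374 (sign changed), heart minus myoblasts -26.3 and muscle minus myoblasts -26.6 (both passed). With at least 2 UGU, downstream minus intron was -5.76 in heart and -10.0 in muscle (both passed) and downstream minus 3′ UTR in muscle was -0.0151 (sign changed). With 1 cluster per gene, downstream minus intron for UGU was 1.19 in heart and 0.821 in muscle (signs changed), and the overlap differences were -4.12 for heart in muscle and -14.0 for muscle in heart against the 3′ UTR, and 18.2 for myoblasts in muscle against introns (all lost). The last was 12.7 with 50% overlap of both clusters and 11.9 without Zfp871 and Lnpk (both lost). Without these 2 genes, heart in myoblasts was -5.64 and myoblasts in heart -36.2 against the 3′ UTR (both passed), and heart in myoblasts was -0.555, muscle in heart -1.98 and muscle in myoblasts -0.727 against introns (signs changed). For the share of genes with a 3′ UTR cluster, genes with over 10 nt of 3′ UTR gave -3.36 in heart and -16.3 in muscle (both lost) and 2.15 in myoblasts, and genes with at least 2 clusters gave 11.3 in myoblasts (signs changed). The 19 myoblast clusters limit every comparison with that library, and the files give no read numbers.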

Other observations

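Past the 10 kb limit a further 17 clusters lay in 4 genes, 12 of them in heart, 1 in muscle and 4 in myoblasts. Slc8a1 and Aak1 continued their downstream series. Tnrc18 had 5 clusters 309862 to 311194 nt past the end of the annotated record matched to it by name. The authors sought clusters within genes, so this record may not cover the gene that they delimited, which was not tested. These distances are therefore not read as binding past the gene. The heart cluster at 311166 nt, the muscle cluster at 311176 nt and the myoblast cluster at 311194 nt fell at the same place. Nme7, a nucleoside diphosphate kinase family member, had 1 myoblast cluster at 26969 nt. Before the 5′ start, Itpripl2 had 4 heart clusters, 1 muscle cluster and 4 myoblast clusters, between 1320 and 3035 nt. Tnnt2, the cardiac troponin T gene, had 2 upstream clusters in heart, and Hmga2, a chromatin protein of growing cells, had 1 in myoblasts at 209 nt.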
